A study of Mus musculus with 27 samples.

Results

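The comparison sets the loaded left ventricle of mice that carry caPI3Kalpha, an activated version of the alpha-type catalytic protein of the lipid kinase phosphoinositide 3-kinase (PI3K), against the normal unloaded ventricle of wild type (WT) mice. It holds 6 of the 27 libraries of the series, chosen by their labels: 2 messenger RNA libraries of caPI3Kalpha TAC (animals 11 and 211) and 4 of WT sham (animals 6, 7, 13 and 15). TAC is transverse aortic constriction, a surgical narrowing of the aorta against which the ventricle must pump. All groups were adult FVB mice and all ventricles were taken 7 days after the operation. WT mice had a sham operation (WT sham, 4 mRNA libraries) or TAC (WT TAC, 3), and so did caPI3Kalpha mice, which the genotype field calls a PI3Kalpha mutant (caPI3Kalpha sham, 2, and caPI3Kalpha TAC, 2). The source name of the WT sham 15 mRNA library gives animal 13, so WT sham 13 and 15 may be from 1 animal. They differed by a median absolute log2 difference of 0.132, beside 0.141 and 0.14 from WT sham 7, and the results without either are given below. The groups compared differ in both genotype and operation, so the comparison alone cannot tell the effect of the mutant from that of the load. The labels do not name the promoter that drives caPI3Kalpha, the cells that carry it, or the sex of the animals.

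PI3Kalpha makes a membrane lipid signal below insulin and insulin-like growth factor receptors, which activates the kinase Akt. In heart muscle this pathway is known for the growth of the heart with exercise and development, and Akt keeps FoxO transcription factors out of the nucleus. Pressure overload is known to bring back fetal genes in the ventricle, such as the natriuretic peptides and skeletal alpha-actin, to raise matrix genes, and to lower genes of calcium handling and fat oxidation.

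Each value is an RPKM, a read number scaled to transcript length and library size, as the authors deposited it, and the number of reads behind it is unknown. The table lists 8987 genes. Changes are differences of means of log2(RPKM + 0.5), which understates the change of low genes, with the standard error (SE) of limma. A gene was called higher or lower where its Benjamini-Hochberg adjusted p over all genes was under 0.05. Nothing in the labels says that the animals of a group were handled apart, so p-values measure the spread between these samples.

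The sign of the first principal component (52.0% of the variance) split the 11 mRNA libraries into 2 sets. All 4 caPI3Kalpha libraries were in the first, together with WT sham 6 and WT TAC 1. WT TAC 17 and 19 were in the second with WT sham 7, 13 and 15. The labels do not give these sets. Within the first set, WT sham 6 is the sole control, so the results below are given also from a fit with a term for the set and, for leading genes, as the difference from WT sham 6. The median absolute log2 difference over all genes between caPI3Kalpha TAC 11 and WT sham 6 was 0.16, and between caPI3Kalpha TAC 211 and WT sham 6 it was 0.184. Against WT sham 7, 13 and 15 it was 0.348 to 0.358 for animal 11 and 0.397 to 0.403 for animal 211. Both loaded libraries thus lay closer to WT sham 6 than to any other WT sham library. WT sham 6 itself differed from WT sham 7, 13 and 15 by 0.351 to 0.363, as far as caPI3Kalpha TAC 11 did. At least 2-fold apart from WT sham 6 were 108 genes in caPI3Kalpha TAC 11 and 221 in caPI3Kalpha TAC 211, and 90 genes were as far apart between the loaded libraries themselves.

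**Figure D1:**
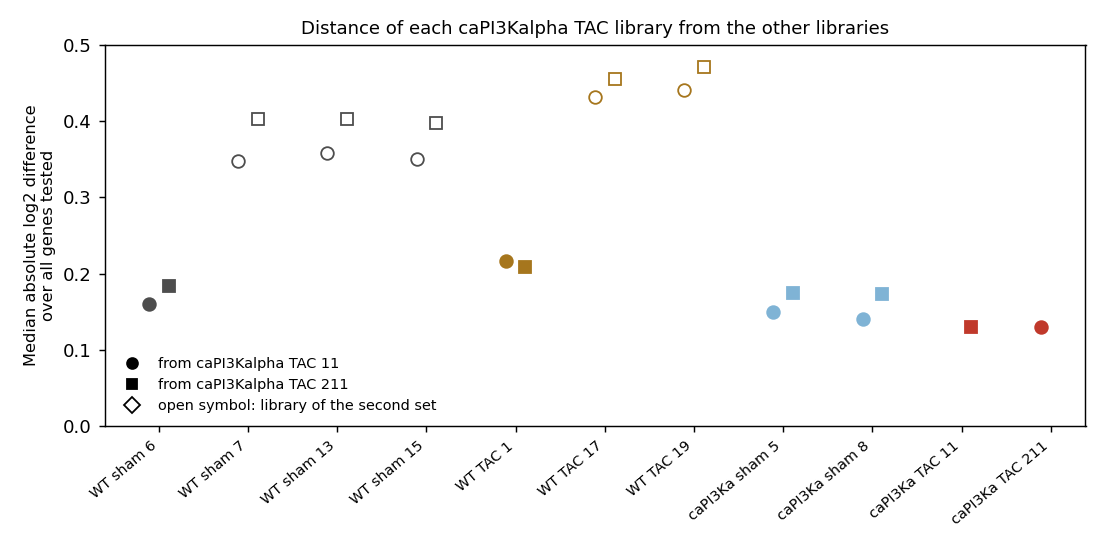
Median absolute log2 difference over 8987 genes (vertical axis, log2 units) between each caPI3Kalpha TAC library and every other mRNA library, with open symbols for libraries of the second set. WT sham 6 lies at 0.16 and 0.184, and the other WT sham libraries lie between 0.348 and 0.403.

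The label was checked first. Pik3ca, which encodes the alpha catalytic subunit, read 5.3, 8.5, 7.7 and 7.0 RPKM in WT sham 6, 7, 13 and 15 and 110.5 and 101.3 RPKM in caPI3Kalpha TAC 11 and 211. Every loaded caPI3Kalpha library stood far above all WT libraries. The change was 3.82 (SE 0.24, adjusted p 6.82e-05), a 14.1-fold rise, and 4.22 with the set term. The unloaded caPI3Kalpha libraries read 115.4 and 195.0 RPKM. A value per gene does not separate transcripts of the introduced gene from those of the animal's own.

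Loaded caPI3Kalpha ventricles differed from unloaded WT ventricles in 269 of 8987 genes, 2.99% of those tested. Of these, 161 were higher (1.79%) and 108 lower (1.2%), and the change was at least 2-fold in 76 of the higher (0.846%) and 39 of the lower (0.434%). In all 269 the 2 loaded libraries lay outside the range of the 4 WT sham libraries, and so by necessity on the same side of WT sham 6. Non-overlap alone was common, at 2962 genes or 33.0%. With the set term 287 genes were called (3.19%), 168 higher (1.87%) and 119 lower (1.32%). Of the 269, 163 were called in both fits (1.81%), 100 higher (1.11%) and 63 lower (0.701%). Leaving out WT sham 6 gave 2874 calls, and leaving out WT sham 7, 13 or 15 gave 68, 85 or 77. Without caPI3Kalpha TAC 11 it was 51, and without caPI3Kalpha TAC 211 the single gene called was Pik3ca. All 269 kept their direction in each of these fits. Where a library was left out this was fixed in advance, because the groups of all 269 do not overlap. Against WT sham 6 alone no gene was called, with 1149 at an unadjusted p under 0.05.

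Of 16 measured fetal and hypertrophy genes 7 were called higher and 1 lower, beside 1.79% and 1.2% of all genes, and 8 did not pass the test. The counts were the same with the set term, beside 1.87% and 1.32% of all genes. The median change of the 16 was 1.11, beside -0.0044 over all genes, and 0.96 beside 0.025 with the set term. Nppa, which encodes atrial natriuretic peptide, read 117.3, 55.5, 75.0 and 68.9 RPKM in WT sham 6, 7, 13 and 15 and 426.3 and 650.9 RPKM in caPI3Kalpha TAC 11 and 211. Both loaded libraries were above all unloaded ones. The rise was 2.78 (SE 0.34, adjusted p 0.00479), or 6.88-fold, and 2.18 with the set term.

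Nppb, which encodes brain natriuretic peptide, read 121.1, 45.9, 68.0 and 108.2 RPKM in the WT sham libraries in the same order and 236.5 and 404.4 RPKM in the loaded ones. It rose by 1.94 (SE 0.44, adjusted p 0.0431) and had an adjusted p of 0.116 with the set term, so its call rests on the fit without that term. Acta1, skeletal alpha-actin, read 455.2 RPKM in WT sham 6 but 89.9, 93.7 and 47.4 RPKM in WT sham 7, 13 and 15, and 1567.3 and 1806.4 RPKM in the loaded libraries. WT sham 6 was therefore the highest unloaded library and still below both loaded ones. The rise was 3.85 (SE 0.63, adjusted p 0.0132), 2.74 with the set term and 1.88 against WT sham 6 alone. How reads shared by near-identical genes such as the actins were counted is not given in the sources used here, so actin and myosin heavy chain values are uncertain in that respect.

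Ankrd1, a titin-binding stress protein of cardiac muscle, read 439.1, 378.9, 591.0 and 645.9 RPKM in WT sham and 1426.5 and 1688.1 RPKM in caPI3Kalpha TAC. Its rise of 1.63 (SE 0.24, adjusted p 0.00788) was 1.96 with the set term. Xirp2, an actin-binding protein of the intercalated disc, read 64.4 to 71.8 RPKM unloaded and 174.5 and 172.1 RPKM loaded, a rise of 1.36. Uchl1, a deubiquitinating enzyme, rose by 1.70, and Rcan1, a regulator and target of calcineurin, by 1.81, from 18.1 to 26.2 RPKM to 55.8 and 109.7 RPKM. The member that fell was Acta2, smooth muscle actin, from 38.1 to 50.3 RPKM to 14.9 and 19.0 RPKM, a change of -1.40 (adjusted p 0.0431). Without caPI3Kalpha TAC 11, 2 of the list's 7 rises were called.

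The adult and fetal myosin heavy chains moved less. Myh6, the fast adult isoform, read 3856.4, 3264.8, 3296.0 and 3686.3 RPKM in WT sham and 2872.2 and 2643.3 RPKM in caPI3Kalpha TAC. The loaded values were the lowest of the 6, and the change was -0.35 (SE 0.15, adjusted p 0.164), with -0.58 and an adjusted p of 0.028 under the set term. Myh7, the slow fetal isoform, read 1040.7, 623.9, 642.7 and 696.1 RPKM in WT sham and 831.1 and 1525.8 RPKM in caPI3Kalpha TAC. Its groups overlapped, and the change of 0.62 had an adjusted p of 0.164.

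**Figure D2:**
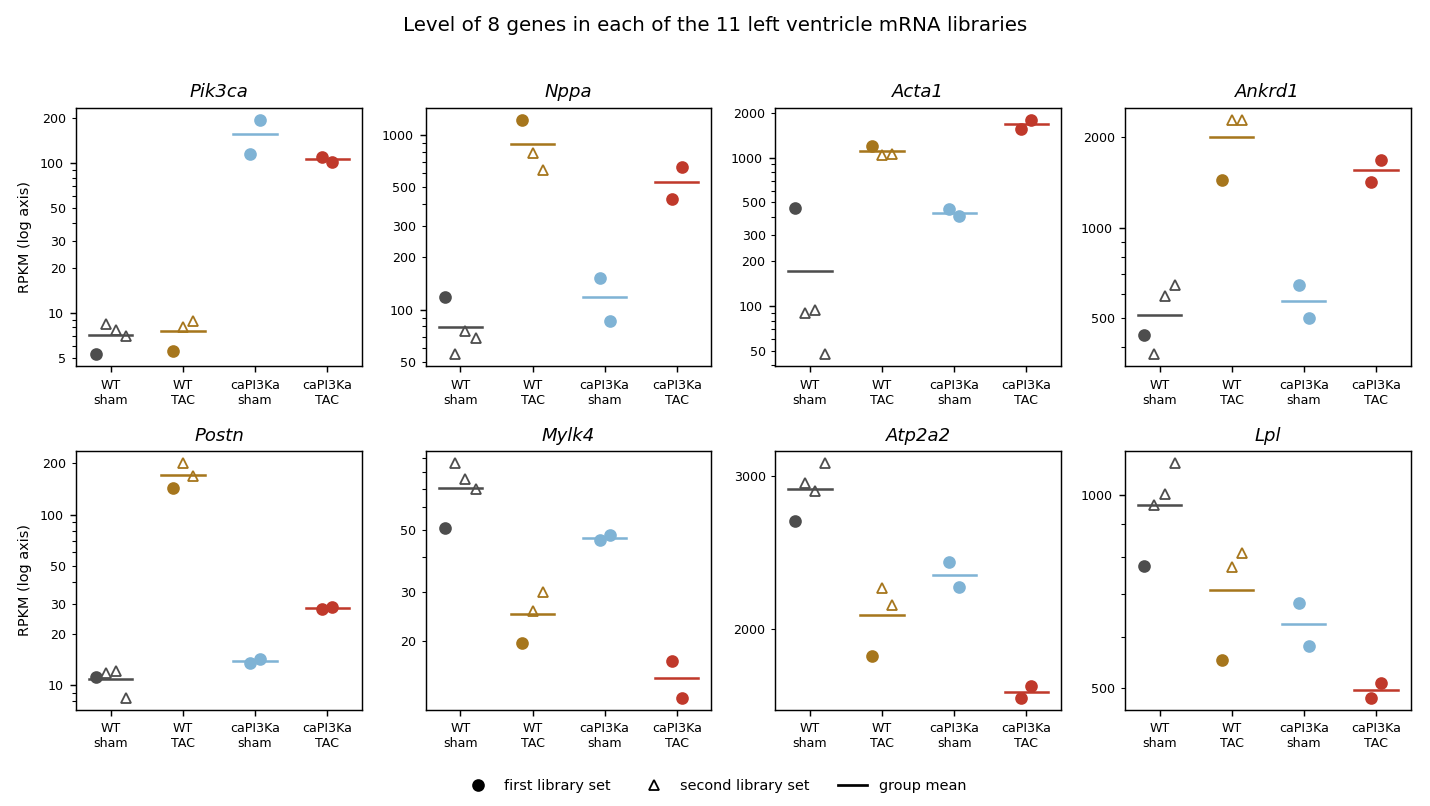
RPKM of 8 genes (log axes) in each of the 11 mRNA libraries by group, with filled circles for the first library set, open triangles for the second and lines at group means. For Nppa the caPI3Kalpha TAC libraries sit at 426.3 and 650.9 RPKM against 55.5 to 117.3 RPKM in WT sham, and for Atp2a2 at 1665.8 and 1719.2 RPKM against 2667.0 to 3108.6 RPKM.

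The promoters of 4 of these genes are shown because they rose together and because heart muscle promoters are known for MCAT and CArG elements, which bind TEAD factors and serum response factor. The sequences are the 250 bases before the start site in RefSeq's annotation of GRCm38.p6, 5′ to 3′ on the gene's strand, and capitals mark motif matches. They lie at chr4:148000472-148000721 (plus strand) for Nppa, chr4:147985650-147985899 (plus) for Nppb, chr8:123894776-123895025 (minus) for Acta1 and chr19:36119845-36120094 (minus) for Ankrd1.
Nppa: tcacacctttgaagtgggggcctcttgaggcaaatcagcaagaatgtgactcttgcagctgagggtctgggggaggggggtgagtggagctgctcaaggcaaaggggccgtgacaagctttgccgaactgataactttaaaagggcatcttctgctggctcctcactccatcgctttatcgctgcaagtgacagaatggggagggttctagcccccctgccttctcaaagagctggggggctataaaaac
Nppb: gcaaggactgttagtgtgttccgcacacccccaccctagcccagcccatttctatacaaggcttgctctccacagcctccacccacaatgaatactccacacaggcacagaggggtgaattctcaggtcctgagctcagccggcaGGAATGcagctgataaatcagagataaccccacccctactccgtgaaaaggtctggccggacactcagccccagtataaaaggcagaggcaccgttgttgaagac
Acta1: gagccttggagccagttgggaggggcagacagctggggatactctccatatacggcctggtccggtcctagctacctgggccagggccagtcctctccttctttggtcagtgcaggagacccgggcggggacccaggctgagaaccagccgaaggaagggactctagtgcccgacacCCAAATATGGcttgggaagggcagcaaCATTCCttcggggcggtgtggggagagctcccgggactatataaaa
Ankrd1: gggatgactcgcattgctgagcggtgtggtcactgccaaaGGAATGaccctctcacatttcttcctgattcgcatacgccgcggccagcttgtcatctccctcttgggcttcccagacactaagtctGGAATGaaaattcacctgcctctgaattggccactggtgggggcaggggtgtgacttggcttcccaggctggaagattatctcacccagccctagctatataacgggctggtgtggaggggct
The motifs searched were MCAT (CATTCC, either strand), CArG by its name, and the FoxO element GTAAACA (either strand), and no match overlapped another. Acta1 held a CArG match 73 to 64 bases before the start and an MCAT match 46 to 41 bases before it. Nppb held an MCAT match at 105 to 100 bases, and Ankrd1 held MCAT matches at 210 to 205 and 123 to 118 bases, all on the opposite strand. The letters of the 3 motifs were not found in the Nppa window, and those of the FoxO element in none of the 4. Among 32817 promoter windows of the same length, 12.6% held MCAT, 1.47% CArG and 3.16% the FoxO element. A match describes letters and was not tested as a site.

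Of 55 measured members of the extracellular matrix list 17 were called higher and 1 lower, and 14 and 0 with the set term, beside 1.79% and 1.2% of all genes. The list's median change was 0.81, and 0.44 with the set term. Postn, a matricellular protein of activated fibroblasts, read 11.1, 11.8, 12.1 and 8.4 RPKM in WT sham 6, 7, 13 and 15 and 28.0 and 28.8 RPKM in caPI3Kalpha TAC 11 and 211. The loaded values were nearly equal and above every unloaded one. Postn rose by 1.36 (SE 0.17, adjusted p 0.00479), or 2.57-fold, and by 1.47 with the set term.

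Cilp, a matrix protein of the interstitium, rose from 0.4 to 1.2 RPKM to 4.9 and 8.1 RPKM, a change of 2.46. The microfibril proteins Mfap5 and Mfap4 each rose by 1.64, and Mfap5 had the smallest adjusted p of the list, 0.000917, with 3.0 to 4.0 RPKM unloaded and 10.7 and 13.0 RPKM loaded. Col8a1, a short-chain collagen, rose by 1.14, and the collagen VI chains Col6a1 and Col6a2 by 1.04 and 1.46. Col15a1, a collagen of basement membrane zones, rose by 1.38. Bgn, the proteoglycan biglycan, read 58.8 to 74.2 RPKM unloaded and 126.1 and 126.5 RPKM loaded, a rise of 0.96. Loxl2, a collagen cross-linking enzyme, rose by 1.18, and Mmp2, a gelatinase, by 0.91. The member that fell was Thbs2, thrombospondin 2, from 5.2 to 8.3 RPKM to 3.5 and 2.4 RPKM, at an adjusted p of 0.0398 that was 0.0576 with the set term.

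The main fibrillar collagens did not pass the test. Col1a1 read 15.5, 6.8, 5.8 and 4.9 RPKM in WT sham and 22.6 and 28.3 RPKM in caPI3Kalpha TAC, a change of 1.70 (SE 0.53, adjusted p 0.0972) that was 0.52 with the set term. Col3a1 read 28.3, 24.8, 19.7 and 20.3 RPKM and then 39.1 and 46.3 RPKM, a change of 0.87 (adjusted p 0.103). In both genes the groups did not overlap, and WT sham 6 was the highest unloaded library. Without caPI3Kalpha TAC 11, 6 matrix genes were called higher and 0 lower.

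Genes of TGF-beta signalling, the growth factor pathway known to drive matrix production, moved in both directions. Of 20 measured members 3 were called higher and 2 lower, beside 1.79% and 1.2% of all genes, with a median of 0.44. Gdf15, a stress-induced ligand of the family, was at 0.5, 0.0, 0.2 and 0.0 RPKM in WT sham and at 2.6 and 9.7 RPKM in caPI3Kalpha TAC. Its values of 0 make the fitted rise of 3.12 depend on the pseudocount. Tgfb2, a ligand, rose by 0.90. Tgfbr3, the co-receptor betaglycan, fell by 0.88 from 9.3 to 11.3 RPKM to 5.9 and 5.1 RPKM, and Ltbp1, which stores the ligand in the matrix, fell by 0.60 with an adjusted p of 0.0634 under the set term. Ctgf, a matricellular target, read 34.6, 23.3, 33.9 and 32.4 RPKM in WT sham and 46.1 and 109.0 RPKM in caPI3Kalpha TAC. Its change of 1.20 had an adjusted p of 0.0723, and 0.0379 without caPI3Kalpha TAC 11.

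Few markers of other cell types passed the test, beside 2.99% of all genes called in either direction. Of 9 fibroblast markers, 15 macrophage and myeloid markers and 14 endothelial markers, 0 were called in either direction. In lists this short 0 calls lies near the share of all genes and does not set these markers apart. With the set term, beside 3.19% of all genes, the 1 called was Lum, the proteoglycan lumican, higher by 0.79. Some members that did not pass lay apart all the same. Cldn5, an endothelial tight junction protein, read 7.9, 4.8, 2.6 and 2.4 RPKM in WT sham and 9.9 and 16.4 RPKM in caPI3Kalpha TAC, a change of 1.57 (adjusted p 0.0734) that was 0.75 with the set term. Among fibroblast markers Col1a1, given with the matrix genes, changed by 1.70, and Tcf21, a fibroblast transcription factor, by 0.94 (adjusted p 0.11), with WT sham 6 inside the loaded range. The summed level of the fibroblast markers was 170.4 to 179.0 RPKM in WT sham and 202.0 and 224.8 RPKM in caPI3Kalpha TAC. That sum holds Col1a1 and Lum, which the matrix list holds too, so it is not independent of the matrix result. Lum read 30.2 to 49.9 RPKM in WT sham and 52.7 and 52.3 RPKM in caPI3Kalpha TAC. The summed macrophage markers were 133.5 to 152.5 RPKM and then 132.8 and 159.1 RPKM. The summed endothelial markers were 276.3 to 306.8 RPKM and then 312.5 and 308.1 RPKM. Their part in the matrix result was not tested. In bulk ventricle, fewer cells of a type and less RNA per cell cannot be told apart. Among 8 smooth muscle and pericyte markers 1 was called lower, Acta2, beside 1.2% of all genes. Myh11, smooth muscle myosin, changed by -0.57 (adjusted p 0.0662, 0.0413 with the set term). Cell cycle genes gave 0 calls among 14, which is also near the share of all genes. None of the lymphocyte markers or of the nerve sheath and mesothelial markers written down is listed in the table.

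**Figure D3:**
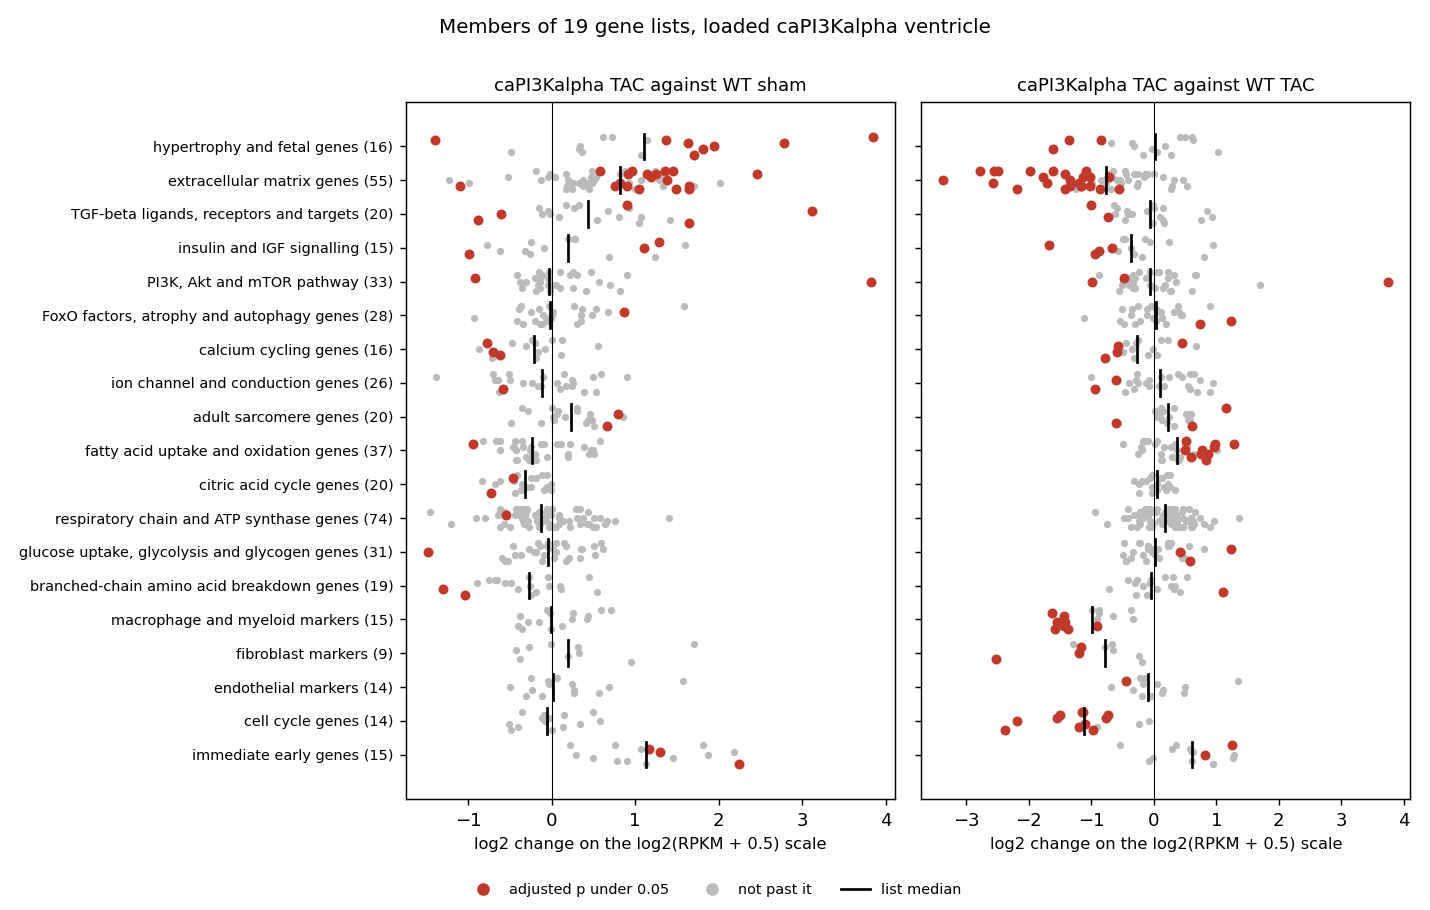
Log2 change of each measured member of 19 gene lists (points, with the number of members in brackets) in caPI3Kalpha TAC against WT sham, left, and against WT TAC, right, with red for adjusted p under 0.05 and bars at list medians. The matrix list has a median of 0.81 on the left and -0.76 on the right.

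In the pathway that the mutant drives, few genes beyond Pik3ca passed the test. Of 33 measured PI3K, Akt and mTOR genes 1 was called higher, Pik3ca, and 1 lower, beside 1.79% and 1.2% of all genes. The list's median was -0.03. The lower gene was Tbc1d4, an Akt substrate that restrains the glucose transporter of muscle, which read 14.1, 14.7, 15.0 and 15.9 RPKM in WT sham and 7.4 and 7.9 RPKM in caPI3Kalpha TAC. The loaded values lay far below a narrow unloaded range. It fell by 0.92 (SE 0.11, adjusted p 0.00479), or 1.89-fold, and by 0.84 with the set term. Akt1, the kinase itself, read 35.0, 21.9, 22.2 and 22.4 RPKM in WT sham and 23.9 and 24.7 RPKM in caPI3Kalpha TAC. WT sham 6 stood above all others, so the change was -0.03 in the planned fit (adjusted p 0.938), -0.54 with the set term (adjusted p 0.0242) and 0.13 without WT sham 6. Slc2a4, the insulin-regulated glucose transporter, had the same shape, with 106.4 RPKM in WT sham 6, 66.7 to 70.7 RPKM in the other WT sham libraries and 68.5 and 70.7 RPKM in caPI3Kalpha TAC. Its change was -0.14 (adjusted p 0.629), -0.50 with the set term (adjusted p 0.0242) and 0.02 without WT sham 6.

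Of 15 insulin and IGF signalling genes 2 were called higher and 1 lower, beside 1.79% and 1.2% of all genes. Irs1, insulin receptor substrate 1, read 7.3, 6.4, 7.2 and 6.2 RPKM in WT sham and 3.1 and 3.2 RPKM in caPI3Kalpha TAC. It fell by 0.99 (SE 0.15, adjusted p 0.0096), or 1.99-fold, and by 0.97 with the set term. The IGF binding proteins Igfbp5 and Igfbp7 rose by 1.29 and 1.10. Among 28 FoxO factors and genes of atrophy and autophagy the 1 called was Sqstm1, the autophagy receptor p62, which rose by 0.87 from 72.7 to 102.3 RPKM to 153.5 and 168.6 RPKM. That list's median change was -0.02, and 1.79% of all genes were called higher. Without caPI3Kalpha TAC 11 Tbc1d4 stayed called and neither Irs1 nor Sqstm1 did.

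Of 16 measured calcium cycling genes 0 were called higher and 3 lower, beside 1.2% of all genes called lower, with a median of -0.22. With the set term 2 were lower and the median was -0.11. Atp2a2, which pumps calcium back into the sarcoplasmic reticulum, read 2667.0, 2950.5, 2888.5 and 3108.6 RPKM in WT sham 6, 7, 13 and 15 and 1665.8 and 1719.2 RPKM in caPI3Kalpha TAC. The groups lay well apart. It fell by 0.78 (SE 0.10, adjusted p 0.00479), or 1.71-fold, by 0.63 with the set term and by 0.66 against WT sham 6. Without caPI3Kalpha TAC 11 its adjusted p was 0.037. Ryr2, the release channel, fell by 0.70 from 107.8 to 127.5 RPKM to 79.0 and 66.3 RPKM, and Cacnb2, a subunit of the L-type channel, by 0.62 with an adjusted p of 0.0595 under the set term.

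Pln, phospholamban, the inhibitor of the pump, read 1560.9 RPKM in WT sham 6, 2362.5 to 2480.5 RPKM in the other WT sham libraries and 1190.5 and 1180.6 RPKM in caPI3Kalpha TAC. Its change was -0.87 (adjusted p 0.067), and -0.40 against WT sham 6. Slc8a1, the sodium-calcium exchanger, changed by -0.71 (adjusted p 0.0532). Of 26 ion channel genes the 1 called was Kcnip2, a subunit of the transient outward potassium channel. It fell by 0.58 from 67.1 to 78.7 RPKM to 46.4 and 48.8 RPKM. With the set term 4 of the 26 were called lower, beside 1.32% of all genes, and 0 higher. Kcnq1, a repolarizing potassium channel, changed by -0.63 (adjusted p 0.0617), and by -0.93 with the set term (adjusted p 0.00197). Of 20 adult sarcomere genes 2 were called higher, beside 1.79% of all genes, and 0 lower. The sarcomere genes called were Cryab, the chaperone alpha B-crystallin, higher by 0.80, and Mybpc3, cardiac myosin binding protein C, higher by 0.66. For Cryab WT sham 6 read 855.4 RPKM against 557.9 to 590.0 RPKM in the other unloaded libraries and 1116.0 and 1085.0 RPKM in the loaded ones. Lmod2, which caps and lengthens thin filaments, changed by 0.41 (adjusted p 0.0851), and by 0.57 with the set term (adjusted p 0.00562).

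Few energy metabolism genes passed the test, beside 1.2% of all genes called lower and 1.79% higher. In the respiratory chain the share called was near that of all genes, though many members lay below the WT sham range, as given below. Among 37 genes for the uptake and oxidation of fatty acids 0 were called higher and 1 lower, with a median of -0.24. That 1 was Lpl, lipoprotein lipase, at 774.2, 962.9, 1003.9 and 1121.1 RPKM in WT sham and 483.0 and 510.2 RPKM in caPI3Kalpha TAC. It fell by 0.95 (SE 0.17, adjusted p 0.0194), and by 0.60 with the set term. With the set term 5 fatty acid genes were lower and 0 higher, and Ech1, a peroxisomal and mitochondrial isomerase, was among them at -0.50 (adjusted p 0.0283), with -0.43 and an adjusted p of 0.0641 without the term. Fabp3, the fatty acid binding protein of heart muscle, lay the other way, at 1466.6 to 1941.2 RPKM in WT sham and 2420.8 and 2084.6 RPKM in caPI3Kalpha TAC. Its change of 0.49 had an adjusted p of 0.0682, which was 0.014 with quantile normalization. Of 20 citric acid cycle genes 2 were called lower and 0 higher. Cs, citrate synthase, fell by 0.47 from 383.3 to 437.9 RPKM to 307.2 and 292.7 RPKM, and Idh3a, a subunit of isocitrate dehydrogenase, by 0.73. None of the 20 had a positive change. In 15 of the 20 both loaded values lay below all 4 unloaded ones, beside 16.1% of all genes. The same held for 17 of 37 fatty acid and 35 of 74 respiratory chain genes. It held for 8 of 31 glucose, 12 of 19 branched-chain and 6 of 18 regulator genes. In these 5 lists 3, 1, 2, 2 and 1 genes lay above all 4 unloaded values, in that order, beside 16.9% of all genes.

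Of 74 respiratory chain and ATP synthase genes the 1 called was Cox5a, a cytochrome oxidase subunit, lower by 0.54 (adjusted p 0.0486, 0.0583 with the set term). Of 31 genes of glucose uptake, glycolysis and glycogen the 1 called was Pfkfb1, a bifunctional enzyme that sets a regulator of glycolysis, lower by 1.48 at 3.2 and 1.8 RPKM against 5.7 to 10.3 RPKM. Of 19 genes of branched-chain amino acid breakdown 2 were called lower and 0 higher. Ppm1k, the phosphatase that activates the pathway's rate-limiting complex, read 14.6, 18.8, 19.4 and 19.7 RPKM in WT sham and 6.9 and 7.1 RPKM in caPI3Kalpha TAC, a fall of 1.30 (SE 0.19, adjusted p 0.00771) that was 0.92 with the set term. Bckdhb, a subunit of that complex, fell by 1.03 from 22.4 to 29.6 RPKM to 12.5 RPKM in both loaded libraries. Among 18 metabolic regulators the 1 called was Ppargc1a, the coactivator of mitochondrial genes, which fell by 0.88 from 15.0 to 20.5 RPKM to 9.7 and 9.6 RPKM. The calls of these metabolic genes need both loaded libraries in the fit. Without caPI3Kalpha TAC 11 each called gene was still lower, which groups that do not overlap fix in advance.

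Among 15 immediate early genes, which respond within minutes to stimuli, 3 were called higher and 0 lower. For this list and those that follow, 1.79% of all genes were called higher and 1.2% lower. The median of the immediate early genes was 1.13, and 0.40 with the set term. Cyr61, a secreted matricellular protein, rose by 1.29 from 18.2 to 24.0 RPKM to 41.1 and 64.3 RPKM and was the 1 also called with the set term. Nr4a1, an orphan nuclear receptor, rose by 2.24 (adjusted p 0.0402) and Btg2, an antiproliferative factor, by 1.16. Of 20 genes of endoplasmic reticulum and oxidative stress the 1 called was Hspa5, the chaperone BiP, lower by 0.52 (adjusted p 0.0472, 0.0669 with the set term). Of 15 clock genes the 1 called was Bhlhe40, a repressor, higher by 0.73 (adjusted p 0.0469, 0.0902 with the set term). Of 75 cytosolic ribosomal protein genes 0 were called, with a median of 0.13. Of 7 natriuretic peptide receptors and processing enzymes the 1 called was Corin, the protease that activates atrial natriuretic peptide, which fell by 1.16 from 43.8 to 52.6 RPKM to 24.9 and 18.2 RPKM.

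The largest changes called in both fits reached beyond these lists. Mylk4, a myosin light chain kinase family member, had the largest fall, from 50.6, 86.3, 75.5 and 69.8 RPKM in WT sham to 17.1 and 12.6 RPKM in caPI3Kalpha TAC. The change was -2.20 (SE 0.22, adjusted p 0.00253), or 4.59-fold lower, and -1.75 against WT sham 6. Ankrd23, a relative of Ankrd1, rose by 2.37 from 64.9 to 136.7 RPKM to 389.5 and 510.4 RPKM. Aqp8, a water channel, rose by 2.57 at 4.1 and 8.1 RPKM against 0.3 to 1.1 RPKM, and Mybpc2, a fast skeletal muscle myosin binding protein, by 1.95. Angpt1, the vessel-stabilizing ligand of the receptor Tek, fell by 1.89 from 4.3, 10.1, 9.8 and 13.2 RPKM to 2.6 and 1.5 RPKM, and by 0.95 against WT sham 6. Tnfaip8, a regulator of cell death, fell by 1.64.

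Penk, proenkephalin, fell by 1.26 at 3.5 and 3.6 RPKM against 7.7 to 11.7 RPKM. Ces1d, a carboxylesterase, fell by 1.26, and Dsg2, a desmosomal cadherin of the intercalated disc, by 1.22. Lrrc15, a leucine-rich repeat membrane protein, fell by 1.04, and the unnamed genes 1700040L02Rik and 2610528E23Rik fell by 1.21 and 1.32. Among genes called without the set term and not with it, the largest rises beside Nr4a1 and Nppb were Scx, the tendon factor scleraxis, by 2.20, and Cacnb1, a calcium channel subunit, by 1.57. The largest such falls were Ifi205, an interferon-activated gene, by 1.68, Ptgfr, the prostaglandin F receptor, by 1.59, D7Ertd715e by 1.5 and Gbp10, a guanylate-binding protein, by 1.49. Outside the naming rule, and chosen after its values were seen, Nrap, an actin anchor of growing myofibrils, rose by 1.28.

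The loaded ventricles of both genotypes were compared directly and this comparison shares the caPI3Kalpha TAC libraries with the one against WT sham. Against WT TAC 586 genes were called (6.52%), 67 higher (0.746%) and 519 lower (5.78%), but the median of all genes was -0.176. With quantile normalization that median was -0.024 and the split was 72 higher (0.801%) and 143 lower (1.59%) of 215, and with centring on library medians it was -0.012 with 130 (1.45%) and 139 (1.55%) of 269. The excess of lower genes thus depends on the scaling. With the set term 809 genes were called (9.0%), 113 higher (1.26%) and 696 lower (7.74%). In the matrix list 24 of 55 genes were lower than in WT TAC and 0 higher, with 20 and 0 under either scaling and 34 and 0 with the set term. Macrophage markers gave 8 of 15 lower (7 under either scaling), cell cycle genes 11 of 14 (7 and 6) and fibroblast markers 3 of 9 (3 and 3). Fatty acid genes gave 10 of 37 higher and 0 lower (8 and 13 higher, 0 lower). With the set term these counts were 12, 13 and 4 lower and 17 higher. Summed fibroblast markers, again with Col1a1 and Lum, were 451.2 to 542.3 RPKM in WT TAC. Summed macrophage markers were 295.8 to 362.4 RPKM there. Both were above the caPI3Kalpha TAC sums given earlier, and their part in the matrix difference was not tested. Without WT TAC 1 the count was 3269, and without any other library of the compared groups it was 23 to 83.

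Of the genes called against WT sham, 44 (0.49% of all tested) were also called against WT TAC, and they fell into 3 classes. The first, 16 genes (0.178%), stood above WT sham and below WT TAC, and 10 of them were members of the matrix list. Postn read 142.9, 200.9 and 168.7 RPKM in WT TAC against 28.0 and 28.8 RPKM in caPI3Kalpha TAC, a difference of -2.55 (SE 0.18, adjusted p 8.8e-05). Bgn read 303.4, 278.3 and 231.5 RPKM in WT TAC against 126.1 and 126.5 RPKM, a difference of -1.09. Fstl1, a secreted glycoprotein, read 18.3 to 20.1 RPKM in WT sham, 28.9 and 28.7 RPKM in caPI3Kalpha TAC and 84.6 to 96.9 RPKM in WT TAC. Mgp, an inhibitor of calcification, and Emp1, a membrane protein, lay in the same order, with differences from WT TAC of -0.86 and -1.12. Under the set term 13 of the 16 were called against both WT groups. Against WT TAC 13 held with quantile normalization and 12 with centring.

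Some matrix genes that were high in WT TAC were at levels in caPI3Kalpha TAC that overlapped WT sham. Timp1, an inhibitor of metalloproteinases, read 0.3 to 1.5 RPKM in WT sham and 1.4 and 1.0 RPKM in caPI3Kalpha TAC, but 20.5, 10.8 and 6.1 RPKM in WT TAC, a difference between loaded groups of -2.78 (adjusted p 0.0174). Fn1, fibronectin, read 5.1 to 6.1 RPKM in WT sham, 5.4 and 7.9 RPKM in caPI3Kalpha TAC and 51.8, 28.5 and 21.5 RPKM in WT TAC, a difference of -2.19. Spp1, osteopontin, read at most 0.5 RPKM in WT sham and caPI3Kalpha TAC and 15.8, 5.9 and 3.9 RPKM in WT TAC. These 3 were chosen after their values were seen.

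The second class, 8 genes (0.089%), stood above both WT groups. Besides Pik3ca it held Hspb8, a small heat shock protein, at 151.2 to 167.0 RPKM in WT sham, 174.2 to 187.7 RPKM in WT TAC and 249.5 and 237.5 RPKM in caPI3Kalpha TAC, differences of 0.62 and 0.43. Igsf1, an immunoglobulin family membrane protein, read 14.3 and 18.9 RPKM against 4.5 to 6.3 RPKM in WT sham and 6.8 to 7.4 RPKM in WT TAC. The others were Apoa1bp, Srpk3, a muscle kinase, Ramp3, a partner of calcitonin-type receptors, Mybpc3 and BC029722, with differences from WT sham of 0.58 to 1.05. Against WT TAC Hspb8 had an adjusted p of 0.0855 and Mybpc3 of 0.13 with quantile normalization, under which 6 of the 8 held, and 6 of the 8 were called against both WT groups with the set term. The third class, 20 genes (0.223%), stood below both, but only 5 of them held against WT TAC with quantile normalization and 5 with centring. Under the set term 9 of the 20 were called against both WT groups. Irs1 held under both scalings, at 5.8, 7.2 and 6.5 RPKM in WT TAC against 3.1 and 3.2 RPKM, and so did Abca1, the cholesterol exporter, at 5.1 to 5.4 RPKM against 2.5 and 2.0 RPKM. Tbc1d4 (10.2 to 11.5 RPKM in WT TAC, adjusted p 0.0396) had adjusted p-values of 0.11 and 0.13 under those scalings. No gene was below WT sham and above WT TAC.

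**Figure D4:**
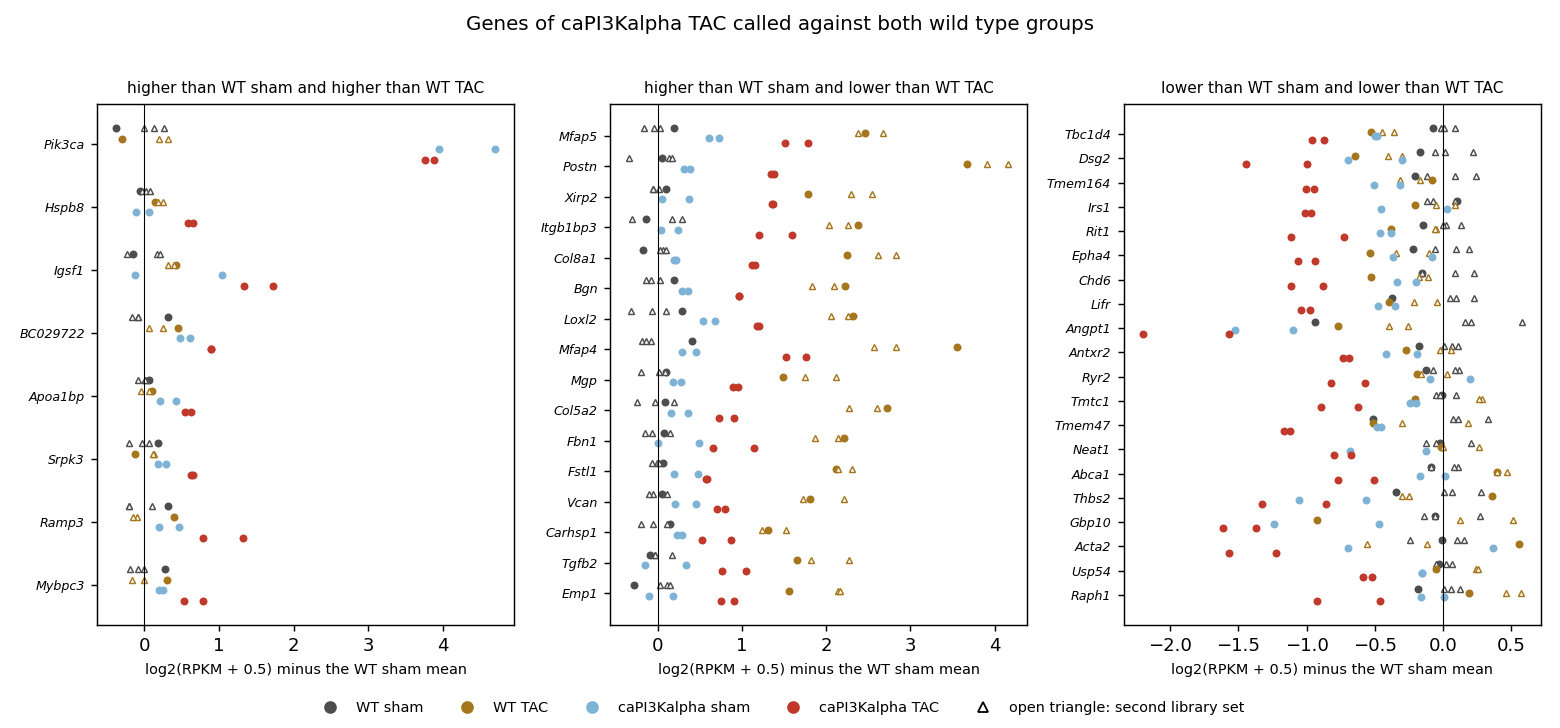
Log2(RPKM + 0.5) of each library minus the WT sham mean (horizontal axis) for the 44 genes of caPI3Kalpha TAC called against both WT groups, 1 panel for each class and open triangles for the second library set. In the middle panel the caPI3Kalpha TAC points of all 16 genes lie between the WT sham and the WT TAC points.

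The natriuretic peptides, Acta1 and Ankrd1 showed no call between the loaded groups. Nppa read 1219.1, 788.6 and 631.2 RPKM in WT TAC, a difference of -0.68 (95% interval -1.48 to 0.11, adjusted p 0.2), which was -1.22 with an adjusted p of 0.0201 under the set term. Acta1 read 1202.7, 1046.4 and 1063.5 RPKM in WT TAC, below both loaded caPI3Kalpha libraries, a difference of 0.61 (95% interval -0.86 to 2.08) that turned to -0.37 with the set term (adjusted p 0.684). For Ankrd1 the difference was -0.34 (95% interval -0.90 to 0.22) and for Mylk4 -0.73 (95% interval -1.25 to -0.22, adjusted p 0.0742). The intervals for Nppa, Acta1 and Mylk4 include differences of 1 log2 unit.

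All caPI3Kalpha libraries lie in the first set, so the comparison of caPI3Kalpha TAC with caPI3Kalpha sham does not cross the sets. It called 0 of 8987 genes with limma, with 454 (5.05%) at an unadjusted p under 0.05, and 93 genes (1.03%) with the set term, 58 higher (0.645%) and 35 lower (0.389%). With only the 2 groups in the fit, or in the first set alone, 0 genes were called. The term leaves these changes as they are and narrows the spread, and the sets were drawn from these same libraries. The calls with the set term given next rest on that narrower spread. Pik3ca, high in both caPI3Kalpha groups, differed by -0.50. This comparison shares the caPI3Kalpha TAC libraries with the one against WT sham. Of the other genes named next, all of them called against WT sham, each had the sign it had there, so the signs are not independent. Nppa read 150.9 and 85.5 RPKM in caPI3Kalpha sham, a change with load of 2.21 (adjusted p 0.0052 with the set term). Ankrd1 changed by 1.45, Postn by 1.01, Mfap5 by 0.98 and Cyr61 by 1.23, each called with the set term. Mylk4 changed by -1.64, Atp2a2 by -0.45 and Ppm1k by -0.75, each called with the set term. Acta1 read 448.3 and 403.8 RPKM in caPI3Kalpha sham, as WT sham 6 did at 455.2 RPKM, and Tbc1d4 read 10.5 and 10.4 RPKM, between WT sham and caPI3Kalpha TAC.

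The 2 loaded caPI3Kalpha libraries differed from each other in 90 genes by at least 2-fold, 55 higher in animal 211 and 35 higher in animal 11. The widest gaps were in red blood cell and atrial genes. Hba-a1, an alpha-globin, read 314.4 RPKM in animal 11 and 12.5 RPKM in animal 211, and Myl7 and Sln, which mark atrial muscle, read 20.8 and 13.7 RPKM in animal 11 and 0.4 RPKM each in animal 211. The summed atrial genes were 3.9 to 15.8 RPKM in WT sham and 65.3 and 9.1 RPKM in animals 11 and 211. Nppa, also an atrial gene, was lower in animal 11. It was called higher in the loaded ventricles, so it does not measure atrial tissue here, and the presence of atrial tissue was not tested. The summed red blood cell genes were 15.8 to 216.9 RPKM in WT sham and 761.4 and 30.0 RPKM in animals 11 and 211. Of 5 atrial genes the 1 called was Dkk3, a secreted modulator of Wnt signalling, beside 1.79% of all genes called higher. Dkk3 was higher by 1.30 (adjusted p 0.0346, 0.0795 with the set term). It read 2.2 and 1.9 RPKM in animals 11 and 211, and 3.4 to 4.0 RPKM in WT TAC. Among the genes with wide gaps, chosen after their values were seen, animal 211 was higher for the cell cycle inhibitor Cdkn1a (36.9 against 6.3 RPKM), Gadd45g (20.1 against 3.6 RPKM), Ddit4, an inhibitor of mTOR (54.8 against 12.8 RPKM), and Irs2, insulin receptor substrate 2 (8.2 against 1.2 RPKM). In all 4 animal 11 lay below the highest WT sham library, and none of the 4 was called against WT sham. The immediate early gene Egr1 and the clock output gene Dbp went the other way, at 20.9 and 34.4 RPKM in animal 11 and 5.3 and 9.2 RPKM in animal 211.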

How the data were processed

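Messenger RNA of mouse left ventricles was sequenced in 11 libraries. The authors deposited 1 table of RPKM values with a column for each library; the submitters' processing notes name CASAVA 1.6, Bowtie, Partek 6.5 and the mm9 build without saying which step each served, and how shared or multiply placed reads were counted is not given in the sources used here. RPKM keeps no read totals, so depth per library is unknown and no counting interval is given; library sums were 202916.4 to 212396.3 RPKM. Of 9251 lines, 261 blank ones, 1 without values and 2 repeats were left out, which gave 8987 genes. Libraries were grouped by their titles; the source name of WT sham 15 gives animal 13, that of another WT sham library, and grouping followed the title. The small RNA table was not used here.

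Values were analysed as log2(RPKM + 0.5) with limma 3.58.1 in R 4.3.3: 1 model of 4 groups over all 11 libraries, moderated with a mean trend, Benjamini-Hochberg adjustment over all genes and a minimum mean of 1 RPKM, which removed 0 genes. The fit was also run on simulated data, whose outcome is not reported here, and no result above rests on it. The members and gene lists were chosen with earlier results of these data known. The genes named were 12 known markers of load and of the mutant, the 10 largest rises and 10 largest falls called in both fits, the 4 largest of each called without the set term alone, and up to 4 members of each list with the smallest p. Further list members, genes called against both WT groups and genes that differed between the loaded libraries were chosen after their values were seen, and the library sets and the set term were added after the data were seen. Promoter sequences are from RefSeq on GRCm38.p6, not the build of the RPKM values, and no RPKM coordinate was used with them. Alternatives were other pseudocounts, filters, scalings, sample sets and fits that left out each library. Some list members that were counted are not reported here by name.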

Additional observations from a re-analysis of the deposited data

Results flagged for a closer look

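In the 4 WT sham libraries, 9 of 97 genes tested had 1 library far from the other 3 (a gap over range above Dixon's critical value). Of these 9, 8 were in WT sham 6. That library is the sole WT sham library of the first set. Its gaps from the other 3 therefore cannot be told apart from the difference between the sets. Dixon's value allows about 1 in 20 by chance for genes fixed beforehand. The 97 are genes named in the text, some of them chosen after their values were seen, so their share cannot be set against that rate. There Akt1 read 35.0 RPKM against 21.9 to 22.4 RPKM in the others, Slc2a4 106.4 against 66.7 to 70.7 RPKM, Fabp3 1941.2 against 1466.6 to 1532.1 RPKM, Cryab 855.4 against 557.9 to 590.0 RPKM and BC029722 14.0 against 9.9 to 10.5 RPKM. WT sham 6 was low for Pln, at 1560.9 against 2362.5 to 2480.5 RPKM, for Cacnb2, at 14.8 against 19.5 to 20.3 RPKM, and for Ppm1k, at 14.6 against 18.8 to 19.7 RPKM. WT sham 7 was low for Ctgf, at 23.3 against 32.4 to 34.6 RPKM.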

How the results depend on the processing

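Against WT sham, 269 genes were called, and 234 to 298 under the pseudocounts 0.1 and 1, no filter or a mean of 5 RPKM, quantile normalization, centring, no trend, and the set term alone or with either scaling. The count was 141 with only the 2 groups in the fit and 0 in the first set alone, where 1149 genes had an unadjusted p under 0.05. Leaving out 1 library gave 1 to 2874 calls: 2874 without WT sham 6, 68, 85 and 77 without WT sham 7, 13 and 15, 51 without caPI3Kalpha TAC 11 and 1, Pik3ca, without caPI3Kalpha TAC 211. With the set term, chosen after seeing the data, the counts were 287 without caPI3Kalpha TAC 11, 60 without caPI3Kalpha TAC 211 and 84 without WT sham 6. Of the 80 called genes named, 60 kept their call with the set term, 74 with quantile normalization, 20 without caPI3Kalpha TAC 11 and 1 without caPI3Kalpha TAC 211, and 0 reversed. For the fits that left out 1 library without the set term, these 0 reversals were fixed in advance by groups that do not overlap. Signs reversed in genes that were not called. Myh7 was at -0.22 with the set term and without caPI3Kalpha TAC 211. Akt1 was at 0.13 without WT sham 6, with -0.09 to 0.13 over the fits that left out 1 library. Slc2a4 was at 0.02 without WT sham 6, with -0.2 to 0.02 over those fits. Against WT TAC, 586 calls became 295 at a mean of 5 RPKM, 215 with quantile normalization, 269 with centring, 79 with only the 2 groups and 1 in the first set alone, and leaving out 1 library gave 23 to 3269. Against caPI3Kalpha sham, 0 calls became 93 with the set term and stayed 0 with only the 2 groups and in the first set alone. Where no cause is named here, the cause was not tested. No paired analysis was possible because the mRNA groups compared share no animal number. The values carry no read depth, so the precision of low genes is unknown.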
